A study of Drosophila melanogaster with 6 samples.

Results

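DNA copy number in H3K9R larval salivary glands was compared with that in HWT glands over every 10 kb window at domains that the authors called under-replicated in HWT. The 2 lists hold 2195 windows, of which 6 are repeats of a listed position, so 2189 different windows remained. The averaged RPM (reads per 1000000 reads) of H3K9R was divided by that of HWT in each window, and the 12 windows at 0 in both genotypes and the 1 at 0 in HWT alone were left out. This gave a log2 ratio for 2176 windows, 1368 in pericentric heterochromatin and 808 on chromosome arms.

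By the labels, all animals lacked both copies of the replication-dependent histone gene cluster (ΔHisC, UAS-2xEYFP over ΔHisC, twi-GAL4) and were rescued by transgenic histone gene arrays. In HWT the array encoded wild-type histones, and in H3K9R it encoded H3 with arginine in place of lysine 9. H4K16R, in which H4 carries arginine in place of lysine 16, was made in the same way and is used here only as a second mutant measured alongside. Replication-independent H3 genes were left intact in H3K9R, so lysine 9 was not removed from all H3. Glands came from female wandering third-instar larvae, with 2 libraries per genotype, each from 25 pooled glands and 20 ng of genomic DNA. Nuclei of whole glands were pooled, so a different share of diploid cells and a different copy number per polytene nucleus cannot be told apart.

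Salivary gland cells of the larva endoreplicate: they copy their DNA again and again without dividing, and the aligned copies form polytene chromosomes. Forks that start late may fail to finish before a cycle ends, and the DNA they would have copied is left with fewer copies than its surroundings, which is called under-replication. It affects pericentric heterochromatin, where methylated H3K9 is bound by HP1a, and silent domains on the arms. SuUR (Suppressor of Under-Replication) and its partner Rif1 are needed for under-replication and act by slowing replication forks in such regions.

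The read counts behind these values are counts of sequence such as the following, taken from the plus strand of dm6 as RefSeq gives it. Each sequence is 100 bases long, the length of a read, lies near the midpoint of a window described below and overlaps no annotated exon. Capitals mark bases that the assembly file masks as repeats. Among windows with at least 5 RPM in HWT and at least 80% of sequence without a second copy in the assembly, the first 3 come from the pericentric windows with the largest rise on their chromosome, and the next 2 from arm windows with the largest fall. The last comes from a window of the telomeric retrotransposon HeT-A.
chr3L:24324766-24324865 beside nvd: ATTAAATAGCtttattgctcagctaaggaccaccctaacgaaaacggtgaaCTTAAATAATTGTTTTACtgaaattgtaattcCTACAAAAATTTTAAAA
chr3R:2214951-2215050 in Myo81F: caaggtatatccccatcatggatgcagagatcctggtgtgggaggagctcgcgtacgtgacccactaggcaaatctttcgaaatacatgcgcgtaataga
chr2L:22394951-22395050 between genes: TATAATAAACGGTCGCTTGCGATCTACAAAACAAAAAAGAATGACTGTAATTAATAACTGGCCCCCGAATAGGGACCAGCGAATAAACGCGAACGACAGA
chr3L:15354951-15355050 between genes: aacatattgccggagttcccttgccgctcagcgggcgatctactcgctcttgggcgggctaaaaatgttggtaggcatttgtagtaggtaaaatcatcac
chr3R:16814951-16815050 in abd-A: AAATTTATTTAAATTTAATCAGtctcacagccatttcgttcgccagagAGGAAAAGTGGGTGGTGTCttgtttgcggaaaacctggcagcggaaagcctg
chr4:1314951-1315050 in HeT-A: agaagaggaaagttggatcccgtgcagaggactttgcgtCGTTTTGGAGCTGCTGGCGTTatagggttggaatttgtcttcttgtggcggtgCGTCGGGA

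The sequences beside nvd, in Myo81F, between genes and in abd-A occurred 1 time each in the assembly, counting both strands, and the HeT-A sequence occurred 2 times. The sequence from 2L was masked in full and still had a single copy. Only reads placed with a mapping quality above 10 had been counted, so reads of uncertain place were left out. Windows with little sequence free of a second copy did not always hold fewer reads. With under 20% of sequence free of a second copy, the HWT median was 16.2 RPM in pericentric windows and 32.9 RPM in arm windows. At 80% or more it was 13.0 RPM in pericentric windows and 40.3 RPM in arm windows.

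Since the lists hold averages, the reads of single libraries were derived from them, and the 2 libraries of a genotype are called deeper and shallower. HWT had 25799522 and 25408559 reads and H3K9R had 22341893 and 18681787. A pericentric window held a median of 400 and 386 reads in HWT and of 934 and 766 reads in H3K9R. The ratios from 2 independent library pairs (deeper over deeper and shallower over shallower) had a Pearson r of 0.96 over 1368 pericentric windows and 0.85 over 807 arm windows. These are correlations across windows, which lie next to each other.

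The 2 window classes changed in opposite directions. The library medians of pericentric windows were 15.5 and 15.2 RPM in HWT and 41.8 and 41.0 RPM in H3K9R, and those of arm windows were 40.7 and 40.6 RPM in HWT and 34.96 and 34.55 RPM in H3K9R. The genotypes did not overlap in either class, although an exact permutation test of 2 against 2 libraries cannot give a two-sided p below 0.333, which both classes had. The median log2 ratio was 1.21 in pericentric windows and −0.22 in arm windows, a difference of 1.43 that is free of library scaling. Over the 4 pairs of libraries the pericentric median ran from 1.19 to 1.23 and the arm median from −0.23 to −0.21. The listed pericentric windows took 2.95% of HWT reads and 6.05% of H3K9R reads, and the listed arm windows 3.22% and 2.86%. Because RPM is a share, the added reads of the listed pericentric windows alone move all other sequence by −0.05 on the log2 scale. Pericentric sequence outside the lists is not counted in this value, so the full shift from added reads is not known.

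With limma on log2(RPM + 1) of the 6 libraries and Benjamini-Hochberg adjustment over 2177 windows, 50.8% of all windows were higher and 7.17% lower in H3K9R at an adjusted p cutoff of 0.001. By class, 1084 of 1369 pericentric windows were higher and 0 lower, with 12 lower at a cutoff of 0.05. On the arms 22 of 808 windows were higher and 156 lower. The 81 arm windows best represented in HWT (its top 10%) had a median log2 ratio of −0.14 themselves. With H3K9R scaled to bring that median to 0, every log2 ratio was shifted up by the same amount, the arm median was −0.08 and the arm counts were 30 higher and 64 lower. The share of higher windows among arm calls thus moved from 12.4% to 31.9%. Leaving out any 1 of the 4 libraries of HWT and H3K9R left 54 to 62 arm windows lower. Both H3K9R libraries lay above both HWT libraries in 92.8% of pericentric windows, and below both in 70.8% of arm windows.

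The pericentric rise was steepest where HWT had least DNA. In windows with 5 to 15 RPM in HWT the median rose from 9.35 to 32.0 RPM, a median log2 ratio of 1.80 (pair range 1.78 to 1.80, n = 364 windows). It was 1.96 below 5 RPM (n = 308), 1.196 from 15 to 30 RPM (n = 312), 0.72 from 30 to 45 RPM (n = 203) and 0.32 at 45 RPM or more (n = 181). The range of pericentric copy number was narrower in H3K9R: the SD of log2 RPM over windows was 1.61 in HWT and 1.31 in H3K9R, while on the arms it was 0.96 and 1.00. The least represented windows did not reach the level of the others. Those below 5 RPM in HWT had a median of 8.87 RPM in H3K9R, 14.3% of the H3K9R median of the top arm windows, and those with 5 to 15 RPM reached 51.8%.

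The best represented pericentric windows exceeded the top arm windows in H3K9R. The pericentric windows at 45 RPM or more in HWT had 79.6% of the top arm level in HWT and 125% in H3K9R. Of all pericentric windows, 31 in HWT and 375 in H3K9R were at or above the median of the top arm windows of the same genotype (68.1 RPM in HWT and 61.9 RPM in H3K9R). Sequence is called unique below where a run of 100 bases has no second copy in the assembly. Among pericentric windows with at least 80% unique sequence, these counts were 4 and 114 of 318. The top arm windows are themselves listed as under-replicated, so their level is no measure of fully replicated DNA.

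The second mutant showed a smaller slope in the same direction. In the same bins the median H4K16R/HWT log2 ratio of pericentric windows was 0.51, 0.13, 0.01, −0.03 and −0.04 from the lowest to the highest HWT level. The windows were called in HWT, and a low HWT value may hold counting error, so HWT level was also taken from 1 HWT library and the ratio formed with the other. The median at 5 to 15 RPM was then 1.79 or 1.82, and at 45 RPM or more 0.34 or 0.31. On the arms there was no such slope: the median log2 ratio was −0.28 from 5 to 15 RPM, −0.34 from 15 to 30, −0.24 from 30 to 45 and −0.18 at 45 RPM or more, all beside 0.07 or less in H4K16R. The 12 arm windows below 5 RPM had a median of −0.11 with a pair range of −0.20 to 0.04, which includes no change.

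**Figure D1:**
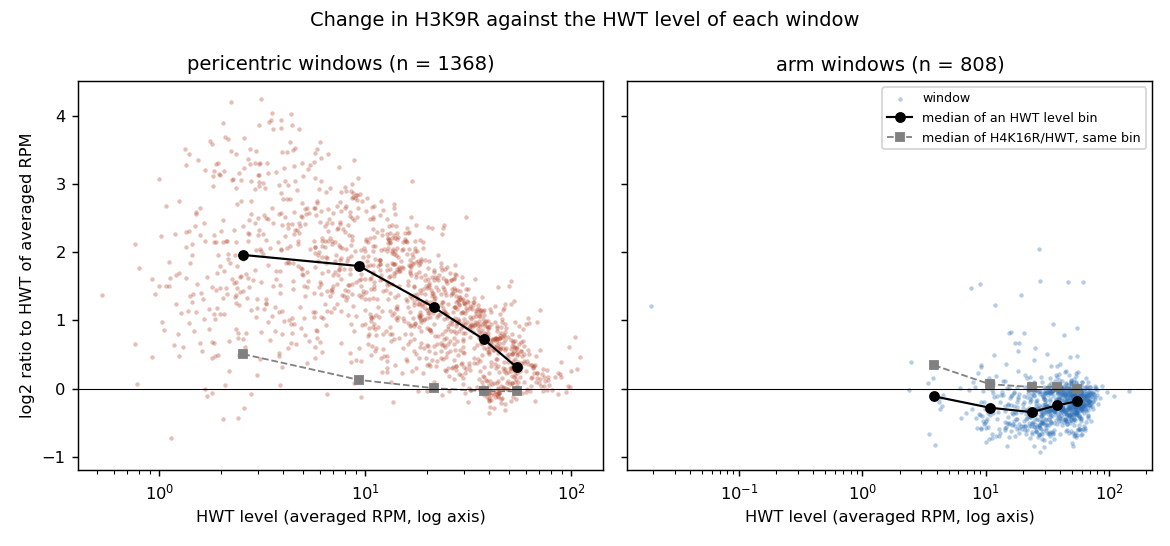
Log2 ratio of H3K9R to HWT averaged RPM (vertical axis) against HWT averaged RPM (horizontal axis, log scale) for each pericentric (left) and arm (right) window; black points are the medians of 5 HWT level bins and grey squares those of H4K16R/HWT. The pericentric medians fall from 1.96 to 0.32 as the HWT level rises, and the arm medians stay between −0.34 and −0.11.

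The change depended on where a window lay in its stretch, a run of adjoining listed windows. In stretches of at least 8 windows the outermost arm windows had a median log2 ratio of −0.11, the second −0.15, the fifth −0.21 and those 8 or more windows in −0.37, while the H4K16R medians at these places stayed between 0.00 and 0.03. In pericentric stretches the medians were 0.39, 0.63, 1.00 and 1.44 at the same places. For arms, inner windows (past the 2 at each end) had a median of −0.28 and end windows −0.12; for pericentric stretches the medians were 1.32 and 0.49. HWT levels also fall toward the inside of a stretch, so windows of like level were compared. At 30 to 45 RPM in HWT arm end windows had a median of −0.02 (n = 19) and inner ones −0.26 (n = 170), and at 45 RPM or more −0.14 (n = 112) and −0.25 (n = 211). For pericentric windows of like level the gap was small above 30 RPM: 0.62 at the ends and 0.73 inside at 30 to 45 RPM, and 0.35 and 0.37 at 45 RPM or more.

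**Figure D2:**
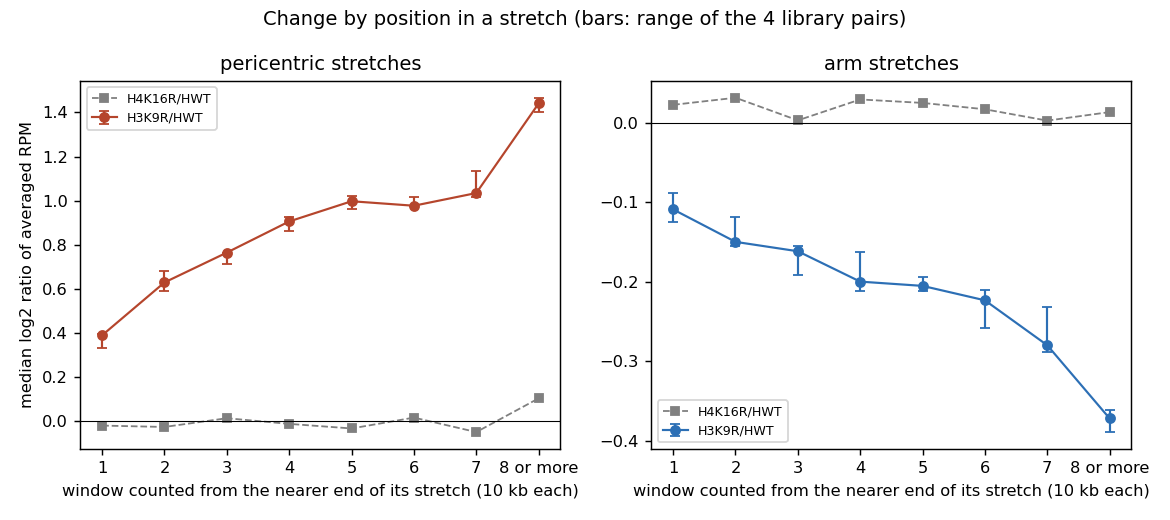
Median log2 ratio to HWT (vertical axis) by the number of the window counted from the nearer end of its stretch (horizontal axis, 10 kb steps) for H3K9R (colour, bars: range of the 4 library pairs) and H4K16R (grey). H3K9R rises from 0.39 to 1.44 in pericentric stretches and falls from −0.11 to −0.37 in arm stretches.

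Each stretch can be measured against its own ends, which removes any scaling of the libraries. Some stretches reach the edge of a scaffold, and that end is then no border with unlisted DNA. In the 35 arm stretches the median level of inner windows, as a percentage of end windows, was 69.0% and 67.6% in the HWT libraries and 60.2% and 62.5% in the H3K9R libraries, as medians over stretches. In the 22 pericentric stretches the HWT libraries had 46.9% and 47.5% and both H3K9R libraries 78.6%. By these medians arm troughs were deeper in H3K9R and pericentric troughs shallower, with no overlap between genotypes. With limma on the log2 of this percentage in the 6 libraries, 12.3% of the 57 stretches were deeper and 35.1% shallower in H3K9R at an adjusted p cutoff of 0.001. The 7 deeper ones were all on arms, where 1 was shallower, and 19 of the 22 pericentric stretches were shallower with 0 deeper. With the mean of the windows in place of the median, 12 arm stretches were deeper and 3 shallower. This fit was added after the ratios by position had been seen, and it was computed with means before medians were taken instead.

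The deepened arm troughs lay on 2L, 3L and 3R. At 2L 15290001 to 15720000 inner windows had 107% of the end level in both HWT libraries and 81.7% and 78.3% in the H3K9R libraries, so inner windows that lay above the ends in HWT lay below them in H3K9R (log2 difference −0.42, SE 0.05, limma adjusted p = 5.8e-07). At 3R 28010001 to 28260000 the HWT libraries had 57.8% and 54.4% and the H3K9R libraries 41.6% and 42.9%. Of the pericentric stretches, that at 2L 22230001 to 22530000 changed most, from 29.0% and 28.4% in HWT to 93.5% and 94.9% in H3K9R (log2 difference 1.71, SE 0.05). The largest pericentric stretch, 3R 1 to 3570000 with 357 windows, went from 17.0% and 16.5% to 49.7% and 47.4%, and so stayed far below its ends. This stretch starts at the scaffold edge, where its first window averaged 2.40 RPM in HWT and 1.79 RPM in H3K9R. The 3 pericentric stretches not called lay at 2L 23190001 to 23290000, 3L 26040001 to 27070000 and X 22570001 to 22810000, and each had overlapping genotypes.

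**Figure D3:**
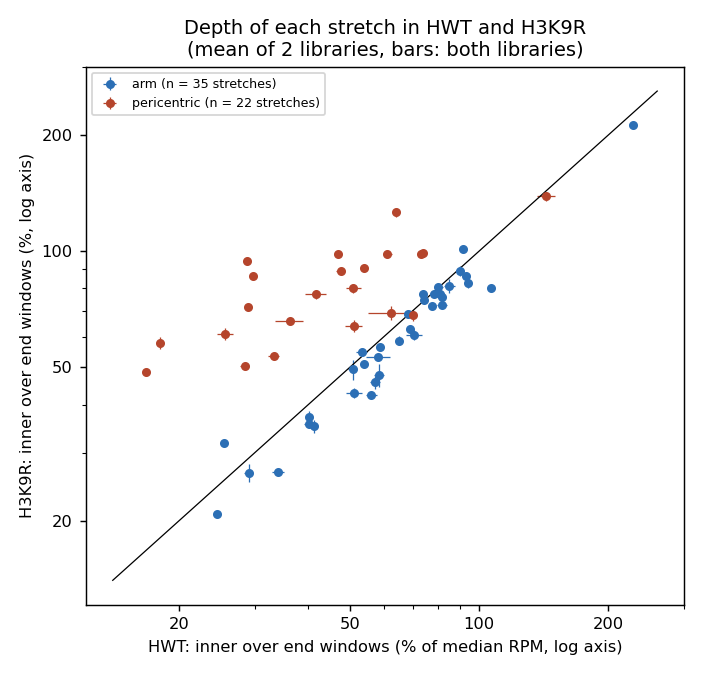
Level of inner windows as a percentage of end windows in H3K9R (vertical axis) against HWT (horizontal axis), both log scale, for the 35 arm (blue) and 22 pericentric (red) stretches of at least 8 windows; points are means of 2 libraries, bars reach both. Pericentric stretches lie mostly above the line of equality and arm stretches mostly below it.

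Longer stretches changed more, in the direction of their class. Arm stretches of under 8 windows had a median log2 ratio of 0.00 (n = 14) and those of 8 to 20 windows −0.14 (n = 16). Those of 20 to 40 windows had −0.31 (n = 15) and those of 40 or more −0.37 (n = 4). For pericentric stretches the medians were 0.03 (n = 14), 0.97 (n = 6), 1.25 (n = 6) and 1.44 (n = 10). Spearman's rho between length and the ratio was −0.60 over the 35 arm stretches of at least 8 windows and 0.45 over the 22 pericentric ones. These are descriptions over stretches that share libraries. The 35 include short raised stretches at the ends of 3L (8 windows, median 0.62) and X (11 windows, 0.89). Longer stretches also hold a larger share of inner windows, and length and position were not separated here. The 5 longest stretches of each class varied. On the arms the median was −0.52 at 2L 15290001 with 29 of 43 windows lower and −0.51 at 2L 17530001 with 17 of 42 lower, but −0.24 at 2L 16930001, −0.17 at X 20530001 (48 windows) and −0.03 at X 12050001, where 2 windows were higher. In pericentric heterochromatin it was 1.66 at 2R 2880001 with 96 of 100 windows higher, 1.56 at 2R 1, 1.29 at 3R 1, 1.12 at 3L 24060001 and 0.94 at 3L 26040001. The change was also shared by neighbours: log2 ratios of windows 10 kb apart had a Pearson r of 0.83 on arms and 0.73 in pericentric stretches, and those 100 kb apart 0.45 and 0.28.

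Distance into the heterochromatin gave no single order. Pericentric windows within 500 kb of the arm side had a median of 1.22 and those farther in 1.21, a difference of 0.01 against an SD of 0.03 over library pairs. The 162 windows near the arm include all 8 listed on chromosome 4, which lie at or toward the far end of that scaffold. Chromosomes differed: on 3R the windows near the arm had a median of 0.09 (n = 12) and those farther in 1.31 (n = 380), on 2L 0.98 (n = 42) and 0.26 (n = 47), and on X 1.61 (n = 49) and 1.23 (n = 92). In windows with at least 80% unique sequence those near the arm had a median of 1.06 (n = 38) and those farther in 1.65 (n = 280), but the HWT medians were 35.1 and 10.2 RPM.

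Unique sequence showed both changes at their largest. The pericentric median was 0.98 where under 20% of the sequence was unique, 1.04 from 20% to 50%, 1.29 from 50% to 80% and 1.57 at 80% or more. The arm median was 0.01 (n = 51), 0.01 (n = 28), −0.06 (n = 56) and −0.26 (n = 673) in the same bins. The lowest arm bin includes windows of the histone gene cluster and of the ends of X and 3L, described below. GC content had little bearing on the pericentric ratio (Pearson r 0.05 over 1368 windows). Pericentric windows with a protein-coding gene had a median of 1.43 and those without 1.06, and the former had lower HWT levels (medians 11.96 and 18.5 RPM) and more unique sequence (63.8% and 37.4%).

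Of the 23 protein-coding genes that span at least 3 pericentric windows, 22 had a median above 0 and 16 had a median ratio of at least 2-fold. The gene dpr21, which encodes an immunoglobulin-domain surface protein, headed the order, with mean levels of 5.37 and 5.84 RPM in the HWT libraries and 53.1 and 53.8 RPM in H3K9R (median log2 ratio 3.73, 14 of 14 windows called higher). Next came nvd (neverland), an oxygenase of the first step of ecdysone synthesis, from 9.27 and 9.74 to 59.4 and 58.7 RPM (2.81, 9 of 9 windows). The P450 gene spok (spookier), which acts later in the same pathway, went from 6.97 and 6.79 to 23.4 and 22.5 RPM (1.73, 4 of 4 windows). Neither HWT library overlapped an H3K9R library at any of these genes.

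The other genes with the highest ratios were lovit, DIP-lambda, Marf1, Pzl, CG40498, CG40470 and l(2)41Ab, with medians from 2.28 for lovit to 1.603 for l(2)41Ab. DIP-lambda encodes an immunoglobulin-domain protein of the family that binds Dpr proteins, and Pzl a relative of the Piezo channel. Of 32 annotated dpr and DIP genes 4 lay in listed windows: dpr21 and DIP-lambda, with 52 of 53 pericentric windows higher, and dpr8 and dpr11, with 0 of 23 arm windows called in either direction. Over all windows, 79.2% of pericentric ones were higher, and 2.72% of arm windows were higher and 19.3% lower. The largest gene, Myo81F (a myosin, 198 windows on 3R), went from 8.57 and 8.54 to 20.0 and 19.9 RPM, with window log2 ratios from −0.12 to 3.16 and 154 windows higher.

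The genes with the lowest pericentric ratios were Cda4, Parp1, CG42402, l(3)80Fg, CG40006, CG42598, scro, Ir41a, CG41520 and Myo81F. Cda4, a chitin deacetylase gene on X, was the exception to the rise: its windows had 51.0 and 50.5 RPM in HWT and 50.6 and 50.0 RPM in H3K9R (median −0.01, 0 of 6 windows called). Parp1, the poly(ADP-ribose) polymerase gene on 3R, went from 56.4 and 56.2 to 67.8 and 67.1 RPM (0.27, 3 of 11 windows higher). The homeobox gene scro rose from 10.6 and 10.3 to 21.1 and 20.4 RPM (0.97, 3 of 4 windows).

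Of 25 genes listed as heterochromatic, 8 lay in listed pericentric windows, and 196 of their 252 windows were higher and 0 lower, with a median log2 ratio of 1.34. Of all pericentric windows 79.2% were higher, with a median of 1.21, so the share of called windows in this list was near the background. Myo81F alone gives 198 of these windows. Snap25, a SNARE of synaptic vesicle fusion, rose from 27.2 and 26.8 to 72.7 and 72.8 RPM with 23 of 23 windows higher. Mitf, on chromosome 4, alone had a median below 0 (−0.46, 0 of 2 windows called). The remaining genes of the list lay outside the listed windows.

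**Figure D4:**
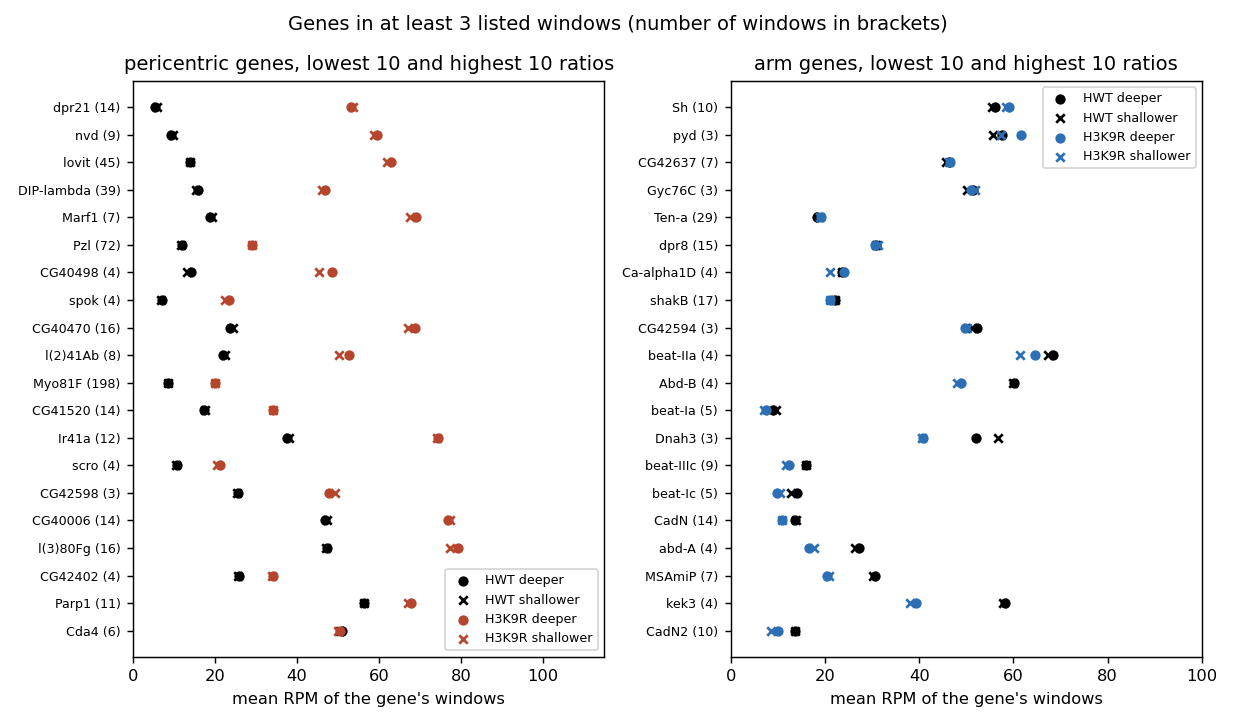
Mean RPM over the windows of each named gene (horizontal axis) in each of the 4 libraries (black: HWT, colour: H3K9R; circles: deeper, crosses: shallower), for pericentric genes (left) and arm genes (right), ordered by median log2 ratio with the window count in brackets. In the pericentric panel the libraries of the genotypes separate everywhere but at Cda4.

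On the arms, 45 of 47 genes that span at least 3 windows had a median at or below 0 and 18 had at least 1 window called lower. The lowest were CadN2, kek3, MSAmiP, abd-A, CadN, beat-Ic, beat-IIIc, Dnah3, beat-Ia and Abd-B, with medians from −0.66 to −0.38. CadN2, a neuronal cadherin gene, went from 13.6 and 13.6 to 9.99 and 8.63 RPM with 4 of 10 windows lower. Its neighbour CadN went from 13.6 and 13.8 to 10.9 and 10.9 RPM with 5 of 14 windows lower, and kek3, a leucine-rich repeat and immunoglobulin gene, from 58.3 and 57.7 to 39.3 and 38.1 RPM with 3 of 4 lower. The beat genes encode axon guidance proteins of the immunoglobulin superfamily. At these genes the H3K9R libraries lay below both HWT libraries.

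The highest arm genes were Sh, pyd, Gyc76C, CG42637, Ten-a, dpr8, Ca-alpha1D, shakB, CG42594 and beat-IIa, with medians from 0.07 to −0.08, and of them Ten-a alone had called windows (2 of 29 higher). With scaling to the top arm windows all 10 had medians above 0. The Hox genes of the bithorax complex, Ubx, abd-A and Abd-B, which set segment identity, had 7 of 15 windows called lower and 0 higher, with a median of −0.42, where 19.3% of all arm windows were lower with a median of −0.22. At abd-A the levels were 27.2 and 26.4 RPM in HWT and 16.5 and 17.7 RPM in H3K9R. Tollo and Toll-6, receptors of the Toll family, had 4 of 4 windows lower with a median of −0.62. The other Hox genes, and the others of the 6 Toll genes looked up, lay outside the listed windows.

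The 22 arm windows that were higher gathered at chromosome ends. Within 200 kb of an end, 16 of 21 arm windows were higher and 0 lower, with a median of 0.83, and elsewhere 6 of 787 were higher and 156 lower. At the end of X 10 of 11 windows were higher, with at most 39.0% unique sequence, and at the end of 2R both listed windows were higher. H4K16R was also above HWT at these ends, by a median log2 ratio of 0.21 at X (8 of 11 windows), 0.54 at 2R (2 of 2) and 0.21 at 3L (5 of 8), beside 0.89, 1.55 and 0.62 in H3K9R. On 3L the 4 windows from 40001 to 80000 were higher and their sequence was 100% unique: 3L 50001 to 60000 went from 36.5 and 33.5 to 67.6 and 67.8 RPM with an H4K16R average of 45.3 RPM, and the window that borders this run, 3L 30001 to 40000, had almost no reads in either genotype (0.02 and 0.04 RPM). Of the 6 windows elsewhere, 4 hold sequence of the transposable elements invader3 or gtwin and 2 lie in Ten-a.

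The arm fall differed among chromosomes. Away from the ends, the median was −0.06 over 178 windows of X (pair range −0.08 to −0.06), with 8 windows lower, and −0.28 over 609 autosomal windows (pair range −0.28 to −0.26), with 148 lower. In windows with at least 80% unique sequence the medians were −0.07 and −0.31. The order of the autosomal arms was 3L at −0.35 (n = 124), 2L at −0.29 (n = 263), 3R at −0.27 (n = 184) and 2R at −0.12 (n = 38). The pair ranges of 2L and 3R overlap. The 2L windows include the histone gene cluster described below, and stretch length was not held equal among the arms.

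Of the 22 pericentric stretches of at least 8 windows, 21 had a median above 0, and a block on X did not. Shorter pericentric stretches often lacked the rise too: the 14 of under 8 windows had medians from −0.46 to 0.89. At X 22570001 to 22810000 the 24 windows had library medians of 44.0 and 45.4 RPM in HWT and 43.4 and 41.7 RPM in H3K9R, a median log2 ratio of −0.11, with 6 windows lower at an adjusted p cutoff of 0.05 and 1 higher at 0.001. At the 0.001 cutoff 0 were lower. H4K16R was lower than HWT in 22 of these windows and lower than H3K9R in 20, with a median log2 ratio to HWT of −0.24. This block includes Cda4 and its sequence is 100% unique by the median window. The next stretch toward the arm, X 21700001 to 22440000, had a median of 1.67 with 64 of 74 windows higher. On chromosome 4 the list places 8 windows in pericentric heterochromatin, but 6 of them, from 1290001 to 1348131, lie at the far end of the scaffold and are annotated mostly as HeT-A and TART-A, the retrotransposons of fly telomeres. All 6 were higher in H3K9R, with log2 ratios from 0.64 to 1.58, and the window in HeT-A shown above went from 48.8 and 52.7 to 147 and 156 RPM. H4K16R averaged 68.4 RPM there and was also above HWT in the other HeT-A windows (84.3 against 70.5 RPM and 44.1 against 35.5 RPM), but not in those of TART-A. The others, from 1200001 to 1220000 in Mitf, also lie toward the far end of the scaffold. They had ratios of −0.73 and −0.20 and limma adjusted p of 0.039 and 0.022. Their HWT averages were 1.13 and 13.6 RPM, and 1.05% and 18.6% of their sequence was unique.

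The arm list also holds the histone gene cluster, which the labels give as deleted in all genotypes. Its 111 annotated genes lay in 14 arm windows. These windows held reads in every genotype, from 7.91 to 57.96 RPM in HWT, 8.46 to 55.004 RPM in H3K9R and 7.78 to 64.2 RPM in H4K16R. The transgenic arrays also carry histone genes, so these reads cannot tell whether the cluster itself was absent. The source of these reads was not tested. Of these windows 0 were called and the median log2 ratio was −0.02. In the stretch that covers it, 2L 21400001 to 21570000, inner windows had 223% and 233% of the end level in the HWT libraries and 209% and 215% in the H3K9R libraries, so this stretch is no trough in either genotype.

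The windows with the largest change on each chromosome, taken from unique sequence with an HWT average of 5 RPM or above, show the size of single effects. The pericentric window 3L 24320001 to 24330000, at nvd, went from 5.31 and 6.34 to 64.1 and 69.3 RPM (limma log2 change 3.31, SE 0.09), and 2L 22390001 to 22400000, of which 81% is annotated as the transposon gypsy8, from 9.26 and 8.38 to 89.1 and 91.6 RPM (3.22, SE 0.07). The Myo81F window at 3R 2210001 rose from 5.04 and 5.39 to 32.7 and 32.6 RPM (2.44, SE 0.06). The largest falls were smaller in size: 3L 15350001 to 15360000 went from 27.1 and 27.5 to 14.5 and 14.02 RPM (limma change −0.89, SE 0.06), the abd-A window at 3R 16810001 from 29.7 and 28.9 to 15.5 and 16.9 RPM (−0.82, SE 0.07) and 2L 15400001 to 15410000 from 52.3 and 49.0 to 27.6 and 28.7 RPM (−0.82, SE 0.06). The largest fall on X, at 20720001 to 20730000, took the average from 45.4 to 31.8 RPM (−0.50, SE 0.07), where H4K16R averaged 36.0 RPM and so was also below HWT. The arm rise in Ten-a, at X 12120001 to 12130000, was from 11.0 and 12.3 to 16.5 and 16.2 RPM (0.46, SE 0.08, adjusted p = 0.00074), beside an H4K16R average of 14.7 RPM.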

How the data were processed

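The authors trimmed reads with Trimmomatic 0.36, aligned them to dm6 with Bowtie2 2.3.2, kept mapping qualities above 10 with SAMtools 1.6 and counted reads in 10 kb windows with bedtools. The deposited values are RPM averaged over 2 libraries per genotype, at domains the authors called with CNVnator (1000-base bins) in HWT. The lists hold 0 columns of single samples. Each average is a sum of whole reads over 2 library totals, and the search for totals gave whole reads for 100% of averages, within 1e-07 of a read, with 1 solution each. On 798 simulated averages of 2 libraries the search recovered the reads of 100%. Which library is replicate 1 is not told by the averages. limma 3.58.1 (R 4.3.3) was fitted to log2(RPM + 1) of the 6 libraries, with a prior variance shared by windows, Benjamini-Hochberg adjustment and a cutoff of 0.001. Whether the replicates came from separate crosses is not stated, so p-values measure the spread between these libraries.

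Windows, stretches (adjoining windows), unique 100-base sequences, GC content and genes were taken from the dm6 assembly of RefSeq. Named windows have the largest rise and the largest fall by limma per class and chromosome, among those past the cutoff with 5 RPM or more in HWT and 80% or more unique sequence; named stretches are the 5 longest per class; named genes span at least 3 windows and have the 10 highest and the 10 lowest medians per class. The members and lists were chosen with earlier results of these data known. The stretch fit, chromosome ends, the order of chromosomes and the X and chromosome 4 blocks were added after the values had been seen. The stretch fit was computed first with means of windows and then with medians, which the text leads with; both results are given. A heterochromatic gene named Parp in the list is annotated as Parp1.

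Alternatives were a pseudocount of 1 RPM (0.1 RPM in limma), a minimum of 5 RPM, scaling to the top 10% of arm windows, at least 80% unique sequence, medians over stretches, an adjusted p cutoff of 0.05, a prior variance following the level, the 4 libraries alone and each library left out. Computation used Python 3.11.15, numpy 2.4.6, pandas 2.3.3 and scipy 1.17.1.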

Additional observations from a re-analysis of the deposited data

How the results depend on the processing

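No paired analysis was possible because the averages carry no replicate number. With 1 RPM added, the pericentric median log2 ratio was 1.11, the arm median −0.22, their difference 1.33, the pericentric level gap (5 to 15 RPM minus 30 RPM or more, 1.29 as deposited) 1.204, the pericentric inner minus end gap 0.76 and the border gap (within 500 kb of the arm side minus farther in) 0.077. With at least 5 RPM in HWT the pericentric median was 1.05, the class difference 1.28 and the inner gap 0.69. Scaling to the top arm windows gave 1.35 and −0.084. Unique sequence gave 1.57, −0.26 and 1.84 for the classes and their difference, 1.46 for the level gap, −0.14 and 1.21 for the arm and pericentric inner gaps and −0.59 for the border gap, which reversed. Medians over stretches gave 0.915, −0.13 and 1.05. The level gap was 1.31 with the HWT level from the shallower library, and the arm level gap (under 30 RPM minus 45 RPM or more, −0.13 as deposited) was −0.11 with the level from the deeper library and −0.10 with the H3K9R shallower library alone. Leaving out 1 library gave 1.19 to 1.23, −0.22 to −0.21 and 1.42 to 1.45 for the classes and their difference, −0.16 to −0.14 and 0.81 to 0.87 for the inner gaps and −0.027 to 0.022 for the border gap, which is also reversed without the HWT deeper (−0.018) or the H3K9R deeper library. By limma, a cutoff of 0.05 gave 12 pericentric windows lower, 37 arm windows higher and 454 lower; a prior variance following the level gave 3 pericentric and 336 arm windows lower; scaling left 64 arm windows lower and 1 library left out 54 to 62. Stretch means gave 12 arm stretches deeper and 3 shallower, and 1 pericentric stretch deeper. Leaving out 1 library gave 5 to 8 arm stretches deeper. Of the 40 named genes, 10 changed sign in some alternative, 9 with scaling and 7 without single libraries. Their deposited medians were at most 0.08 in size. Ten-a changed sign to 0.12 with scaling and ranged from −0.071 to 0.025 without single libraries. Cda4 changed sign to 0.13 with scaling. The causes were not tested. Depth limits windows under 5 RPM, where counting error is largest, and arm calls, of which the smallest fall was −0.35.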
